A study of Mus musculus with 31 samples.

Results

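Txnip and its relatives were followed in mouse liver on 31 one-color microarrays, 1 array for each male C57BL6/J mouse. The genes were Txnip, the alpha-arrestins Arrdc4, Arrdc3, Arrdc2 and Arrdc1, and the thioredoxins Txn1 and Txn2. They were chosen by gene name, and every probe that carried 1 of these 7 names was taken. The array design held 15 such probes, and 13 of them were among the 36057 probes of the deposited table, for 7 of its 23968 gene names. Txnip, Arrdc4, Arrdc3 and Arrdc2 had 2 probes each, Txn2 had 3, and Arrdc1 and Txn1 had 1 each.

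The mice came from a pair of whole-body knockout lines. ChREBPβ-deficient mice (n = 8) lacked the Mlxipl exon that is specific to the ChREBPβ isoform, deleted with CRISPR/Cas9, and were set against 8 WT littermates. Total ChREBP-KO mice (n = 7) were Mlxipl-null, lacking ChREBPα and ChREBPβ, and had 8 WT littermates of their own. All 31 mice were fasted for 24 hours before refeeding for 18 hours, with 20% glucose in the water they drank. The methods put blood sampling in the morning, near the start of the light period. A time for taking the liver, the age of these mice and the founder line are not given in the sources used here.

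Alpha-arrestins are cytoplasmic adaptor proteins with an arrestin fold. Their PPxY motifs bind ubiquitin ligases of the NEDD4 family, and in this way they steer transporters and receptors of the cell surface into endocytosis. Txnip restrains glucose uptake by taking glucose transporters from the surface, and it is the alpha-arrestin that binds reduced thioredoxin. Txnip and its closest relative Arrdc4 are textbook glucose-induced genes, switched on by the Mondo transcription factors, to which ChREBP (gene Mlxipl) belongs, together with their partner Mlx. Thioredoxins are small redox proteins that pass electrons to peroxiredoxins and other enzymes, with Txn1 in the cytosol and nucleus and Txn2 in mitochondria.

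ChREBP binds carbohydrate response elements, which hold a pair of E-box-like sequences. The promoters of Txnip and Arrdc4 are shown because these genes carry the lower signals described below. Each run gives the 250 bases before the annotated start, 5′ to 3′ on the strand of the gene, from RefSeq on GRCm38.p6. The Txnip run lies at chr3:96557707-96557956 on the plus strand and the Arrdc4 run at chr7:68749239-68749488 on the minus strand. Capitals mark matches to an element of the form CACGNG, any 5 bases, CNCGNG in Txnip, and to the E-box CACGTG in Arrdc4.
Txnip: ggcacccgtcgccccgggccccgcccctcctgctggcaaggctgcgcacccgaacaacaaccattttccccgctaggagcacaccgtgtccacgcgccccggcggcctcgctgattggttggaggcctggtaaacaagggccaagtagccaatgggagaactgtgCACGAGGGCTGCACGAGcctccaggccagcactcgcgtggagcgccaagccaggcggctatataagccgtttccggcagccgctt
Arrdc4: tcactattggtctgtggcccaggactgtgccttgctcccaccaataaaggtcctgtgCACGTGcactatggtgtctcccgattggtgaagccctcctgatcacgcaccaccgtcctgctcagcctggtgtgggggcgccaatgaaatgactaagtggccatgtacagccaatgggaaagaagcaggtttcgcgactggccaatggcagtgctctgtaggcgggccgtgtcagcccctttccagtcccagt

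The Txnip element lay 85 to 69 bases before the start. Searched on both strands before the start, this form was found in 0.28% of the 32851 promoter windows of the reference, and the E-box in 6.02%. The E-box of Arrdc4 lay 193 to 188 bases before the start. Another form of the element (CANGNG, any 5 bases, CNCNTG) was found in 0.454% of windows, and in none of the 9 windows of the 7 genes. The Txnip window also held the FOXO sequence TGTTTAC on the opposite strand, 121 to 115 bases before the start, a sequence found in 3.17% of windows. The sequence AGAACA of the glucocorticoid receptor, found in 16.1% of windows, was in none of the 9. An E-box can lie inside a carbohydrate response element, so these searches are not independent. A match is only a match of letters.

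**Figure D1:**
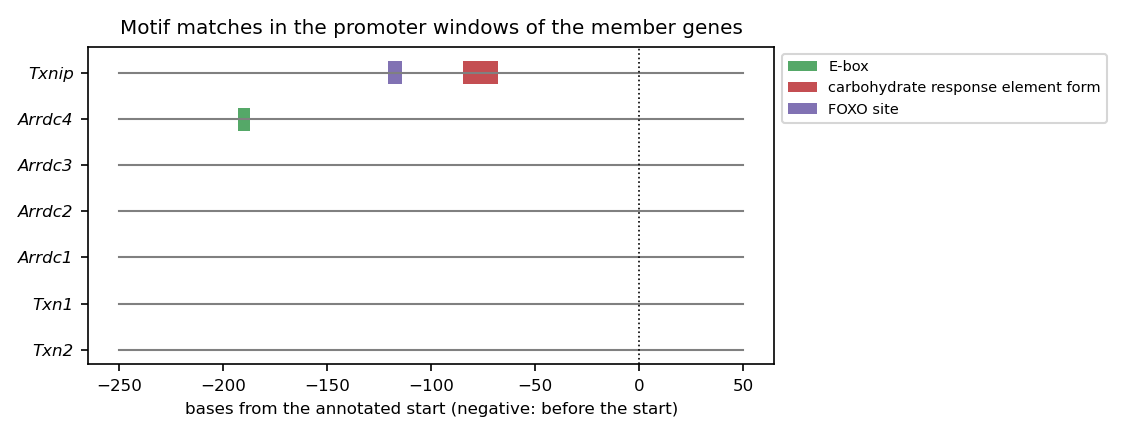
Matches to the searched motifs in the promoter windows of the 7 genes, by distance in bases from the annotated start (dotted line), with matches before the start drawn to scale. Only Txnip and Arrdc4 carry a match, the Txnip carbohydrate response element at 85 to 69 bases before the start.

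Values are log2 of the median spot signal after quantile normalization, so that 1 unit is a doubling. A probe was called where limma's adjusted p was under 0.05 over all 36059 probes tested. The arrays held 34131 to 38612 spots of 59305 that were flagged as found, as positive and significant, and as well above background, with a local background of 15 to 33 signal units. Hepatocyte markers were measured for 7 of 7 genes, with a summed signal of 1874009 to 2030087 over the 31 mice. Quantile normalization ties the brightest probes to fixed values, so this sum says little about hepatocyte content. Alb, for example, differed by 0 in either line. In total ChREBP-KO mice Cps1 was 0.44 and Ttr 0.17 higher (limma, adjusted p = 0.0157 and 0.011), and the other hepatocyte genes were not called. Of the target itself, Mlxipl probe A_55_P2119957 read 13.89 to 14.30 in total ChREBP-KO mice, against 15.14 to 15.48 in their WT littermates. It read 14.40 to 14.84 in ChREBPβ-deficient mice and 14.88 to 15.33 in their WT littermates, without overlap in either line. Where this probe lies relative to the deletions is not known here. In whole liver, fewer cells of a type and less RNA per cell cannot be told apart.

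In total ChREBP-KO mice, Txnip was 2.35-fold lower than in WT littermates, 1 of the probes of Arrdc4 was 2.46-fold lower, and Arrdc3 was higher on both of its probes. Txn1 and the main probes of Txn2 did not pass the test. The loss of both isoforms left 3 of the 13 probes called lower and 3 called higher. Over all probes 14.6% were called lower and 14.5% higher, 29.1% in all. The median log2 difference was -0.09 over the 13 probes and 0.01 over all probes. In ChREBPβ-deficient mice none of the 13 probes was called (limma, adjusted p = 1 for each), and none had an unadjusted limma p under 0.05. Over all probes 0.00277% were called and 4.98% had an unadjusted p under 0.05.

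**Figure D2:**
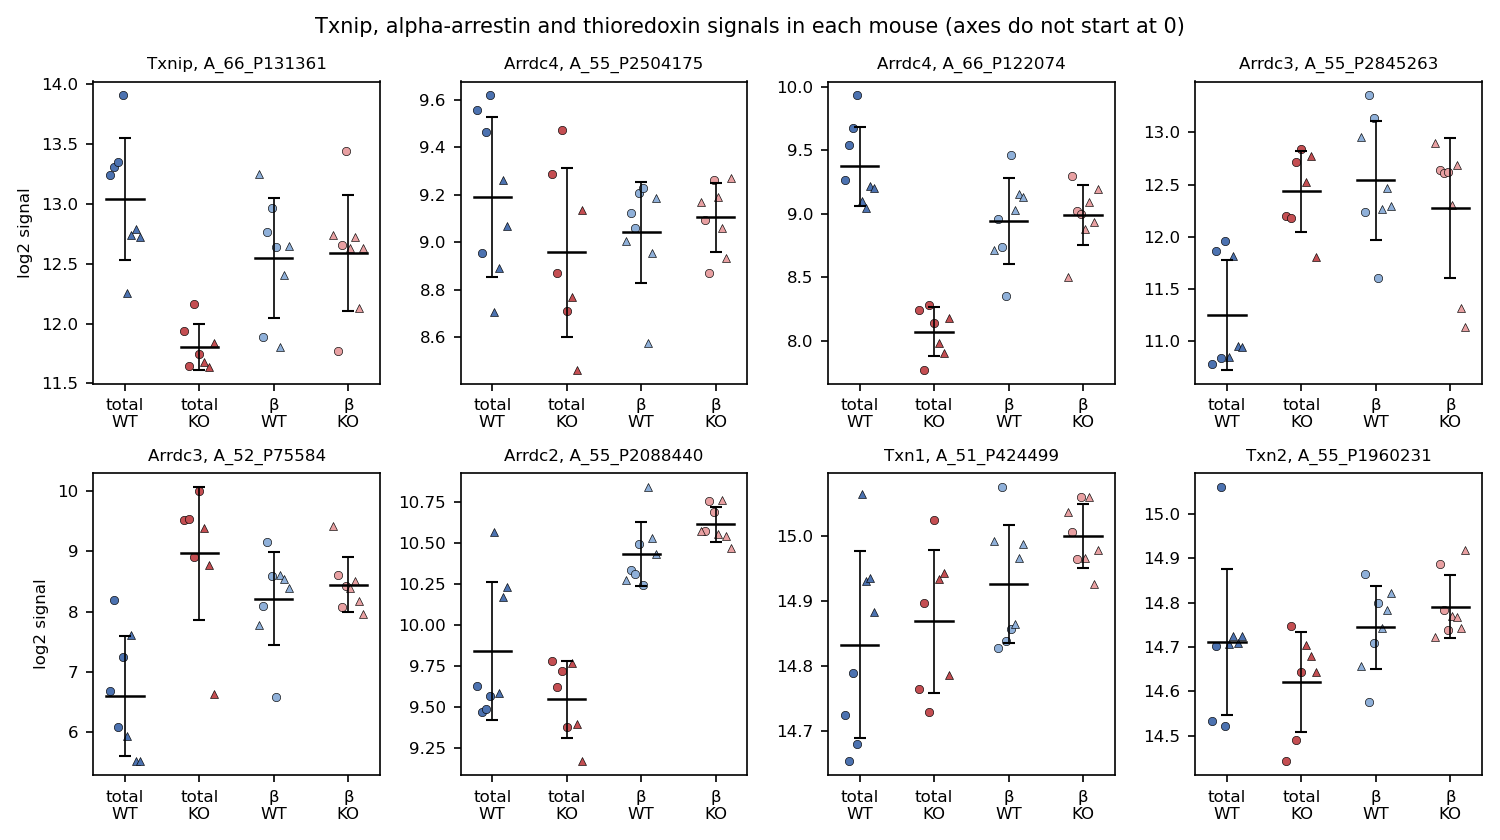
Log2 signal of 8 member probes in each mouse, with circles for arrays of scan day 1, triangles for scan day 2, and horizontal lines and bars for the group mean and SD (n = 7 total KO, n = 8 in the other groups). Txnip and Arrdc4 probe A_66_P122074 show no overlap between total ChREBP-KO mice and their WT littermates, while the groups of the ChREBPβ line overlap for every probe.

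Txnip probe A_66_P131361 (mm9 chr3:96365340-96365399, plus strand) ranged from 11.64 to 12.17 in total ChREBP-KO mice, with a median of 11.74. In their WT littermates it ranged from 12.26 to 13.91, with a median of 13.02. Every knockout mouse was below every WT littermate. The log2 difference was -1.23 ± 0.22 (SE; limma, adjusted p = 6.97e-05), and 270 of all probes had a lower log2 difference. The other Txnip probe, A_55_P2006255 (mm9 chr3:96364206-96364265), read 6.84 to 7.14 in total ChREBP-KO mice and 7.41 to 8.90 in WT littermates. It differed by -1.13 ± 0.19 (SE; limma, adjusted p = 3.5e-05), again without overlap. The change did not differ between the Txnip probes beyond the spread between mice, with a difference of 0.10 (exact two-sided permutation test, p = 0.151, adjusted over 14 such tests 0.264).

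Txnip varied less among total ChREBP-KO mice (SD 0.19) than among their WT littermates (SD 0.51). That difference in spread was not tested. In the WT littermates the 4 arrays of scan day 1 read 13.24 to 13.91 and the 4 of scan day 2 read 12.26 to 12.79, without overlap. The knockout arrays read 11.65 to 12.17 on scan day 1 and 11.64 to 11.84 on scan day 2. The difference between knockout and WT mice was thus -1.58 within scan day 1 (4 against 4 mice) and -0.91 within scan day 2 (3 against 4). Both were lower, and the probe was called in each.

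In the ChREBPβ line, Txnip probe A_66_P131361 read 11.77 to 13.44 in ChREBPβ-deficient mice, median 12.64, and 11.80 to 13.25 in WT littermates, median 12.64. The groups covered nearly the same range. The log2 difference was 0.04, with a 95% interval from -0.39 to 0.48. The difference between the effects of the 2 deletions was -1.27 ± 0.31 for this probe and -1.28 ± 0.27 for the other (SE; limma, adjusted p = 4.05e-03 and 1.03e-03). In order of the group means, Txnip ran from WT littermates of total ChREBP-KO mice (13.04) through ChREBPβ-deficient mice (12.59) and their WT littermates (12.55) to total ChREBP-KO mice (11.81). Neighbours in this order overlapped in range.

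Arrdc4, the nearest relative of Txnip, was read by probes 4453 bases apart, which the array annotation places on different Arrdc4 transcripts. Probe A_66_P122074 (mm9 chr7:75882043-75882102, minus strand) read 7.77 to 8.28 in total ChREBP-KO mice, median 8.14, and 9.05 to 9.93 in WT littermates, median 9.24. No mouse overlapped. The log2 difference was -1.30 ± 0.14 (SE; limma, adjusted p = 1.49e-08), with -1.49 within scan day 1 and -1.12 within scan day 2. This probe and both Txnip probes were the 3 of 13 that lay wholly below the WT littermates, which held for 4.14% of all probes.

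Probe A_55_P2504175 (mm9 chr7:75886496-75886555) read 8.46 to 9.47 in total ChREBP-KO mice and 8.70 to 9.62 in WT littermates. Here the groups overlapped almost throughout, and the log2 difference of -0.23 was not called (limma, adjusted p = 0.211, 95% interval -0.51 to 0.04). The change between groups differed between the probes of Arrdc4 by 1.07 (exact two-sided permutation test on the difference between the probes in each mouse, p = 0.000155, the smallest that 7 against 8 mice allow, adjusted p = 0.00218). In the ChREBPβ line the same quantity was 0.02 (exact permutation test, p = 0.924). The log2 difference between ChREBPβ-deficient mice and WT littermates was 0.05 for A_66_P122074 and 0.06 for A_55_P2504175. For A_66_P122074 the effects of the 2 deletions differed by -1.35 ± 0.19 (SE; limma, adjusted p = 8.23e-06).

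**Figure D3:**
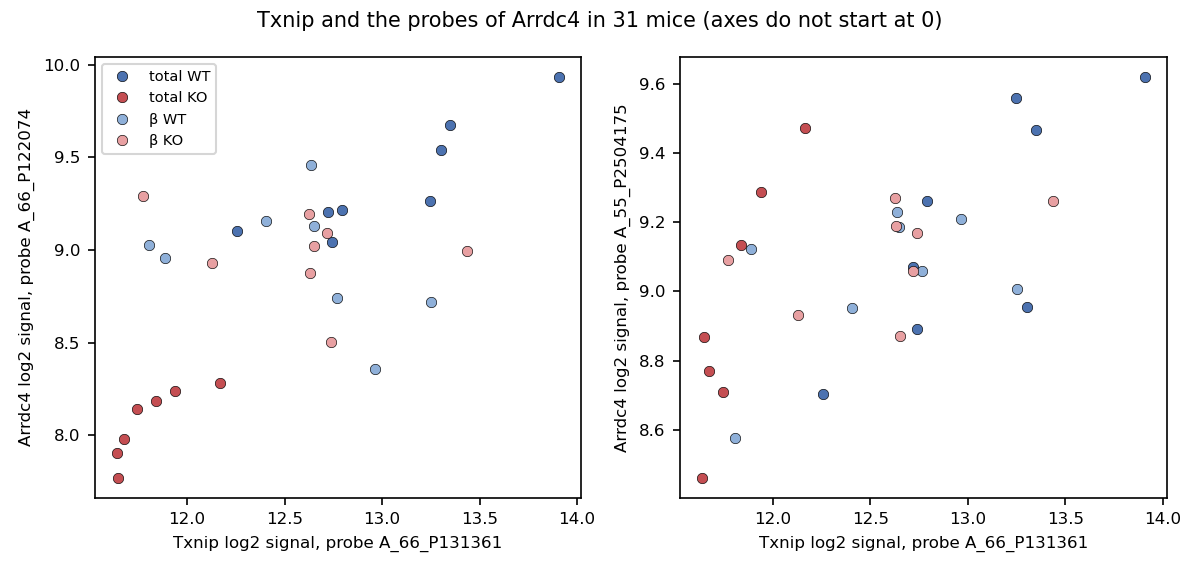
Log2 signal of each Arrdc4 probe (vertical axes) against that of Txnip probe A_66_P131361 (horizontal axes), 1 point for each of 31 mice, colored by group. For A_66_P122074 the total ChREBP-KO mice lie apart at the lower left, from 7.77 to 8.28, while for A_55_P2504175 they spread over nearly the range of the other groups.

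Within total ChREBP-KO mice, those with more Txnip signal tended to have more Arrdc4 signal. Over these 7 mice Pearson's r was 0.907 for A_55_P2504175 (exact permutation p = 0.00278, adjusted over 32 relations 0.0354) with Spearman's rho 0.857 (adjusted p = 0.168, exact permutation). For A_66_P122074 r was 0.845 (exact permutation, p = 0.0123, adjusted p = 0.0796) and rho was 0.964 (exact permutation, p = 0.00278, adjusted p = 0.0444). Without the 2 mice farthest from the median Txnip value, r was 0.741 for the former (exact permutation p = 0.183) and 0.883 for the latter (exact permutation p = 0.0333), over 5 mice. Within these knockout mice neither Arrdc4 probe passed adjustment by both r and rho. From scan day 1 to scan day 2 the knockout means changed by -0.16 for Txnip, -0.30 for A_55_P2504175 and -0.09 for A_66_P122074. The part of scan day in these relations was not tested. In the 8 WT littermates of this line, r was 0.901 and rho 0.929 for A_66_P122074 (exact permutation, adjusted p = 0.0238 and 0.0444). For A_55_P2504175 r was 0.798 (exact permutation, adjusted p = 0.0796). For Txn1 r was -0.908 and rho -0.786 (exact permutation, adjusted p = 0.0354 and 0.168). Txnip, A_66_P122074 and Txn1 each split by scan day there without overlap, so their relations cannot be told apart from scan day. The 4 arrays in each day are too few for a relation within a day. No relation of Txnip with another member, or with Mlxipl, passed adjustment in the ChREBPβ line. For A_66_P122074 r was -0.332 in ChREBPβ-deficient mice and -0.413 in their WT littermates (exact permutation, adjusted p = 0.543 and 0.451).

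Arrdc3, an alpha-arrestin known for the trafficking of beta-adrenergic receptors, moved the other way. Probe A_55_P2845263 (mm9 chr13:81035204-81035263, plus strand) read 11.80 to 12.84 in total ChREBP-KO mice, median 12.53, and 10.78 to 11.96 in WT littermates, median 10.95. The overlap came from 1 knockout mouse, replicate 8, which was below 3 of the WT mice. Arrdc3 rose by 1.18 ± 0.27 on the log2 scale, 2.27-fold (SE; limma, adjusted p = 1.2e-03). Probe A_52_P75584 (mm9 chr13:81028816-81028875), 6388 bases away, read 6.63 to 9.99 in total ChREBP-KO mice and 5.51 to 8.19 in WT littermates. It rose by 2.37 ± 0.42 (SE; limma, adjusted p = 6.4e-05), and 8 of all probes had a higher log2 difference.

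Replicate 8 of the total ChREBP-KO mice stood apart for A_52_P75584, at 6.63 with the next knockout mouse at 8.78. It was also the lowest of its group for the other probe, at 11.80. Leaving out any 1 mouse kept both probes called, with log2 differences from 1.11 to 1.29 and from 2.20 to 2.76. The rise differed between the Arrdc3 probes by 1.19 (exact two-sided permutation test, p = 0.0151, adjusted p = 0.0422). In ChREBPβ-deficient mice the log2 differences were -0.26 and 0.23, both within the spread between mice. The effects of the 2 deletions differed by 1.44 ± 0.38 for A_55_P2845263 and 2.14 ± 0.58 for A_52_P75584 (SE; limma, adjusted p = 7.84e-03 and 0.0112).

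Over the 13 probes, 3 were called lower and 2 higher for the difference of the effects, which are the Txnip, Arrdc4 and Arrdc3 probes just given. Over all probes 8.08% were called lower and 7.02% higher, 15.1% in all. This comparison uses the same mice as the comparisons within each line. Arrdc4 probe A_66_P122074 kept this call within each scan day (-1.72 and -1.03). Arrdc3 and Txnip probe A_66_P131361 lost it in both, with values near those over all mice for Arrdc3 probe A_52_P75584 (2.17 and 1.96), 1.08 and 1.65 for A_55_P2845263, and -1.63 and -0.95 for that Txnip probe, and Txnip probe A_55_P2006255 lost it in scan day 2, at -0.99.

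**Figure D4:**
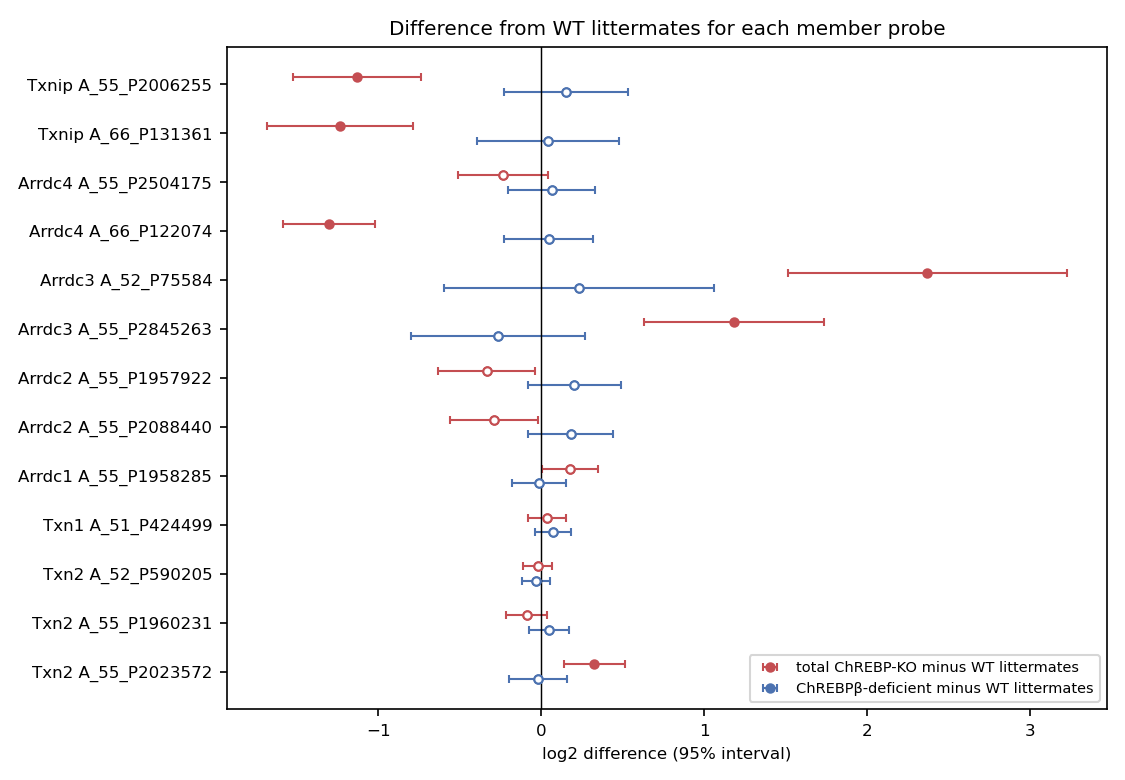
Log2 difference from WT littermates with its 95% interval (horizontal axis) for each of the 13 probes, in total ChREBP-KO mice (red) and ChREBPβ-deficient mice (blue), with filled points for probes called and open points for those not called. Txnip, Arrdc4 probe A_66_P122074 and both Arrdc3 probes lie farthest from 0 in total ChREBP-KO mice, and all blue points lie between -0.26 and 0.23.

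Arrdc2, a less studied alpha-arrestin, was read by 2 probes that share 49 of 60 bases and are thus nearly the same measurement. Probe A_55_P2088440 (mm9 chr8:73359065-73359124, minus strand) read 9.17 to 9.78 in total ChREBP-KO mice and 9.47 to 10.57 in WT littermates. The log2 difference was -0.29 and was not called (limma, adjusted p = 0.101), and for A_55_P1957922 it was -0.34 (limma, adjusted p = 0.0823). Both differed between the scan days. In this line the scan days also part the lower from the higher replicate numbers, so scan day and replicate order cannot be told apart. Within scan day 1 the differences were 0.09 and 0.07, and within scan day 2 they were -0.70 and -0.76, where WT replicates 5, 7 and 8 read 10.17 to 10.57 for A_55_P2088440. In ChREBPβ-deficient mice Arrdc2 differed by 0.18 and 0.20 (limma, adjusted p = 1 for both). Unadjusted Mann-Whitney tests called both probes higher there, and adjusted ones called neither.

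Arrdc1, which drives the budding of vesicles from the cell surface, was read by 1 dim probe, A_55_P1958285 (mm9 chr2:24782434-24782493). It read 4.87 to 5.17 in total ChREBP-KO mice and 4.63 to 5.15 in WT littermates, and it was well above background on 29 of 31 arrays. The log2 difference of 0.17 was not called (limma, adjusted p = 0.124). On the background-subtracted signal scaled to the 75th percentile it was 0.49 and was called (limma, adjusted p = 0.0173).

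The thioredoxins that Txnip acts on stayed in a narrow band. Txn1 probe A_51_P424499 (mm9 chr4:57956677-57956736, minus strand) read 14.73 to 15.02 in total ChREBP-KO mice and 14.65 to 15.06 in WT littermates, with a log2 difference of 0.04 and a 95% interval from -0.08 to 0.15. Its sign turned under a scaling to the 75th percentile. In ChREBPβ-deficient mice the difference was 0.07, with an interval from -0.04 to 0.18. The mitochondrial Txn2 gave -0.09 for A_55_P1960231 (mm9 chr15:77745481-77745540) and -0.02 for A_52_P590205 (mm9 chr15:77745672-77745731) in total ChREBP-KO mice, with intervals from -0.22 to 0.04 and from -0.11 to 0.07.

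The remaining Txn2 probe did pass the test. A_55_P2023572 (mm9 chr15:77757053-77757112), which the array annotation places on another transcript, read 8.45 to 8.86 in total ChREBP-KO mice, median 8.74, and 8.22 to 8.75 in WT littermates, median 8.32. It rose by 0.33 ± 0.09 on the log2 scale (SE; limma, adjusted p = 6.83e-03). The change of the other Txn2 probes minus that of this one was -0.41 for A_55_P1960231 and -0.35 for A_52_P590205 (exact two-sided permutation test, adjusted p = 0.0218 for both). Without the 3 arrays that held the highest sums of adipocyte, cholangiocyte and exocrine pancreas markers, the log2 difference of A_55_P2023572 was 0.26. It was then not called (limma, adjusted p = 0.066). Within scan day 1 it was 0.27 and not called (limma, adjusted p = 0.201), and within scan day 2 it was 0.37. This probe was flagged as found on 27 of 31 arrays.

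The WT littermates of the 2 lines also differed in these genes, mainly in Arrdc3 and Arrdc2. Of the 13 probes, 4 were lower and 1 higher in WT littermates of total ChREBP-KO mice than in those of ChREBPβ-deficient mice. Over all probes 8.92% were called lower and 8.12% higher, 17.0% in all. Arrdc3 differed by -1.29 ± 0.26 for A_55_P2845263, where WT littermates of ChREBPβ-deficient mice read 11.60 to 13.36, and by -1.62 ± 0.41 for A_52_P75584 (SE; limma, adjusted p = 9.19e-04 and 5.88e-03). The mean of A_55_P2845263 was 12.44 in total ChREBP-KO mice, 12.28 in ChREBPβ-deficient mice and 12.54 in their WT littermates, so the WT littermates of total ChREBP-KO mice, at 11.25, were the low group.

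Arrdc2 differed between these WT littermates by -0.60 ± 0.13 for A_55_P2088440 and -0.54 ± 0.14 for A_55_P1957922 (SE; limma, adjusted p = 1.64e-03 and 7.57e-03). In the ChREBPβ line A_55_P2088440 read 10.25 to 10.85 in WT littermates and 10.47 to 10.77 in ChREBPβ-deficient mice, above every total ChREBP-KO mouse. Arrdc4 probe A_66_P122074 was 0.43 ± 0.13 higher (SE; limma, adjusted p = 0.0243), a call that was lost without any of WT replicates 3 and 4 of either line, at adjusted p up to 0.0685. Txnip was 0.49 and 0.50 higher without a call (limma, adjusted p = 0.108 and 0.062). With slide as a fixed block none of these 5 calls held (limma, adjusted p = 0.0599 to 0.147). The log2 differences were then -1.72 and -1.24 for Arrdc3, -0.41 and -0.43 for Arrdc2, and 0.46 for Arrdc4, close to those without the block or, for Arrdc2, somewhat smaller. Each line had its own littermates, so line and litter cannot be told apart here.

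Other markers moved with the groups. The summed signal of 4 red blood cell genes was 129033 to 182904 in WT littermates of total ChREBP-KO mice and 51959 to 110667 in those of ChREBPβ-deficient mice. Its part in the differences between WT littermates was not tested. The sum of 4 stellate cell genes was 19912 to 34856 in total ChREBP-KO mice and 15430 to 21850 in WT littermates. The sum of 3 measured adipocyte genes of 4 had medians of 398 and 404 in those groups. Replicate 6 of the total ChREBP-KO mice read 8242, and WT replicates 5 and 2 read 3207 and 2421. Adipoq was not among the probes kept. In the ChREBPβ line that sum was 635 to 6524 in ChREBPβ-deficient mice, median 2104, and 436 to 1708 in WT littermates, median 789. Of its genes in that line, Cfd differed by 2.04, Plin1 by -0.08 and Lep by -0.13, none of them called. The sum of 4 measured exocrine pancreas genes of 7 was 2469 to 4537 in total ChREBP-KO mice and 2618 to 19095 in WT littermates. Of these genes, Cel and Ctrb1 were called lower, at -0.80 and -0.77 (limma, adjusted p = 0.0478 and 0.0464). Cela2a and Amy2a5, at -0.37 and -0.23, were not called. Txnip and Arrdc4 probe A_66_P122074 kept their calls without the 3 arrays that were highest for adipocyte, cholangiocyte and exocrine pancreas markers. That refit left out only the highest array for each marker. WT replicate 5, with a raised adipocyte sum, and WT replicates 7 and 8, with pancreas sums of 7186 and 7682, stayed in. The part of other cells in the Txnip and Arrdc4 results was not tested.

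Clock output genes differed as well. Dbp, a transcription factor with a strong daily rhythm in liver, read 12.23 to 14.04 in total ChREBP-KO mice and 9.05 to 10.95 in WT littermates. In the ChREBPβ line it spanned 8.53 to 14.51 in ChREBPβ-deficient mice and 8.22 to 15.26 in WT littermates. Of 25 probes of 10 clock genes, total ChREBP-KO mice had 11 called higher and 3 lower, 56.0% in all against 29.1% over all probes. The 3 lower were the probes of Arntl, at -1.38, -1.08 and -1.14. The median log2 difference of the list was 0.68 against 0.01 over all probes. The count called higher ran from 1 to 16 under the alternatives. The part of these differences in the Txnip, Arrdc4 and Arrdc3 results was not tested.

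Among 25 probes of 13 glucose-induced ChREBP targets, total ChREBP-KO mice had 24 called lower, against 14.6% over all probes. The median log2 difference was -2.65. This list was chosen with earlier results of these data known. Beside the -1.23 of Txnip, the log2 difference was -6.37 for Rgs16 probe A_55_P2807418. It was -3.99 for Pklr, the liver pyruvate kinase, -3.16 for Fasn, the fatty acid synthase, and -0.71 and -0.52 for Gpd1, the glycerol-3-phosphate dehydrogenase. These differences between genes were not tested. No probe of this list was called in ChREBPβ-deficient mice, where its median was 0.11. Of the Mondo family and its partner, Mlxip (MondoA) was 0.27 higher after loss of both isoforms (limma, adjusted p = 0.0123).

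Of 9 probes for 7 glucose transporters, total ChREBP-KO mice had 3 called lower and 1 higher, with a median of -0.03. That is 44.4% called, against 29.1% over all probes. Slc2a2, the main glucose transporter of hepatocytes, fell from 11.96 to 9.14 (log2 difference -2.82, limma, adjusted p = 6.14e-10). Slc2a4, the insulin-responsive transporter, fell from 9.15 to 5.96 (limma, adjusted p = 6.25e-07), and Slc2a9, which carries urate, rose by 0.68 on 1 of its 3 probes, with -0.03 and 0.01 on the others, which were not called. Slc2a5, the fructose transporter, fell by 0.67 (limma, adjusted p = 0.0377).

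Ubiquitin ligases of the NEDD4 family and their adaptors, the partners of alpha-arrestins, had 6 probes called higher and 8 lower of 28, for 10 genes measured of 11, and a median of 0.00. All 4 called probes of Nedd4l, the ligase of the epithelial sodium channel, were lower, by 0.86 to 1.34 in size. Nedd4 fell on 3 probes, by 0.26 to 0.49 in size. Ndfip1, an adaptor that activates these ligases, rose on 3 probes, by 0.33 to 0.53, and Itch rose on 2 of 4 probes, by 0.17 and 0.34, with -0.16 and 0.00 on the others, which were not called. In all 14 of these 28 probes were called, against 29.1% over all probes. Other arrestin-fold genes had 4 probes called higher and 1 lower of 13, 38.5% in all, with 8 of 10 genes measured. They were led by Rgp1 at 0.48 on 1 of its 2 probes (0.12 on the other, not called).

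Thioredoxin reductases, peroxiredoxins, sulfiredoxin and enzymes that repair oxidized methionine had 10 probes called higher and 3 lower of 28, for 14 genes. That is 46.4% called, against 29.1% over all probes, and the median log2 difference was 0.05. The count called higher was 6 with median signals scaled to the 75th percentile in place of quantiles. Msrb1, a selenoprotein that repairs oxidized methionine, rose by 0.64 and 0.44, Prdx6 by 0.26 on 1 of 2 probes, and Prdx5 by 0.20 and 0.17. Srxn1, the sulfiredoxin that restores oxidized peroxiredoxins, fell by 0.88 (limma, adjusted p = 3.75e-03), and Msrb2 and the mitochondrial Prdx3 fell by 0.21 and 0.17. Among glutaredoxins and glutathione reductase, 1 probe was called higher and 2 lower of 9, with Glrx5 at -0.41 and Gsr at -0.38. At 33.3% called, this is near the share over all probes.

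Thioredoxin-fold relatives had 3 probes called higher and 4 lower of 28, for 19 genes measured of 20. These 7 of 28 are a smaller share than the 29.1% called over all probes. The values were -0.66 on both called probes for Txnl4a, a spliceosome protein, and 0.41, 0.46 and, without a call, -0.04 for Tmx4. Of the inflammasome genes and Map3k5, a kinase held in check by thioredoxin, 2 probes of 9 were called higher, Il18 at 0.31 and 1 of the Map3k5 probes at 0.24, and none lower. At 22.2% this is also below the share over all probes, and the count ran from 0 to 3 under the alternatives. In ChREBPβ-deficient mice the only called probe of all these lists was the Mlxipl probe A_55_P2119957, at -0.45 (limma, adjusted p = 0.0152).

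Genes with the pattern most like that of Txnip were found by Pearson's r with probe A_66_P131361 over 31 arrays, using 1 probe for each of 23967 other gene names. After the group means were subtracted, the highest values were 0.897 for Klf10, 0.788 for Gm9909, 0.787 for Rgs16, 0.779 for Bhlhe40 and 0.769 for a noncoding probe on chromosome 17 (A_30_P01026575). Over the arrays as they are, they were 0.892 for Bhlhe40, 0.883 for Klf10, 0.861 for an unnamed transcript (A_52_P771436), 0.856 for Cdc42ep4 and 0.855 for Hmmr. Klf10 is a glucose-induced transcription repressor, Bhlhe40 a repressor of the clock, and Rgs16 a regulator of G-protein signaling. The probes share the arrays, their normalization, the scan day and, in the second list, the genotype. With the means of group and scan day subtracted, r was 0.877 for Klf10, 0.716 for Gm9909, 0.813 for Rgs16, 0.813 for Bhlhe40 and 0.741 for the noncoding probe.

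As a description, the log2 difference in total ChREBP-KO mice was -3.81 for Klf10, -2.08 for Bhlhe40, -6.37 for Rgs16 and -0.63 for Gm9909. The noncoding probe differed by 0.04 and was not called (limma, adjusted p = 0.756). In ChREBPβ-deficient mice the difference was 0.17 for Klf10, -0.01 for Bhlhe40, -0.24 for Rgs16, -0.01 for Gm9909 and 0.07 for the noncoding probe. Klf10 and Bhlhe40 also stood in the second list, which was chosen over arrays that carry the genotype difference. Rgs16 was also in the list of ChREBP targets above. Of the other members, Arrdc4 probe A_55_P2504175 had an r of 0.585 after subtraction of the group means, Arrdc3 0.365, Arrdc1 0.354, Txn1 -0.265, Txn2 -0.358 and Arrdc2 -0.418. With scan day subtracted as well, that of Arrdc4 was 0.485 and that of Txn1 turned to 0.092. The pair of Txnip probes had an r of 0.963 with each other, the Arrdc2 pair 0.961, the Arrdc3 pair 0.644 and the Arrdc4 pair 0.361.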

How the data were processed

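The authors deposited scanner files of Agilent Feature Extraction 10.10.1.1 with an intensity and flags for each spot, and a table of log2 values that they made with limma (weight filter, quantile normalization, median of replicated probes). Groups came from the sample labels. Here the median intensity was put on the log2 scale with its background left in. Spots needed a passing weight (flagged as well above background, found, and positive and significant) on at least 26 arrays or 6 of a group. Quantile normalization and the median by probe name left 36059 probes. Member values differed from the deposited log2 values by -0.12 to 0.06. The 4 groups entered 1 limma fit (limma 3.58.1, R 4.3.3, Benjamini-Hochberg over all probes, threshold 0.05). Single values were tested by exact permutation (Python 3.11.15). Precision is limited by 7 or 8 arrays in a group. Of the member spots, 0 of 403 were saturated or carried an outlier flag. Probe positions are those of the array annotation (mm9), which gives no exon or UTR status. Promoters are from RefSeq (GRCm38.p6).

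The members, the gene lists and the tests were chosen with earlier results of these data known. Named genes are every member probe, Mlxipl, up to 8 called genes of each list and comparison, and the 5 genes most like Txnip by each of 2 correlations. The lead probe of a gene is that with the highest mean. The program was tested on simulated data. Alternatives were other signals and scalings, normexp (offset 50), no filter or one over all arrays, the deposited values, slide, scan day and replicate number as blocks, separate fits, eBayes with trend and robust, array weights, a fold of 1.5, Mann-Whitney tests and each array left out. Single scan days, the removal of 3 arrays, the second Arrdc4 probe in the relations and the correlations within scan day were added after the data were seen. Mice were separate animals. Replicate 3 of total ChREBP-KO mice was not analysed here.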

Additional observations from a re-analysis of the deposited data

Results flagged for a closer look

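Single mice stood apart within a group in 4 of the 52 sets of values examined (13 probes in 4 groups), by a Dixon test at the 95% level, which chance alone flags in about 1 of 20 groups. Arrdc3 probe A_52_P75584 read 9.43 in replicate 1 of the ChREBPβ-deficient mice, with the next at 8.61, and 6.63 in replicate 8 of the total ChREBP-KO mice, with the next at 8.78. Arrdc4 probe A_55_P2504175 read 8.57 in replicate 6 of the WT littermates of ChREBPβ-deficient mice, with the next at 8.95. Txn2 probe A_55_P1960231 read 15.06 in replicate 3 of the WT littermates of total ChREBP-KO mice, with the next at 14.73.

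The effect of the total deletion differed from that of the ChREBPβ deletion, by the test of the difference itself, for 5 probes. It was -1.28 for Txnip probe A_55_P2006255, -1.27 for A_66_P131361, -1.35 for Arrdc4 probe A_66_P122074, 2.14 for Arrdc3 probe A_52_P75584 and 1.44 for A_55_P2845263.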

How the results depend on the processing

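In total ChREBP-KO mice the Txnip probes, Arrdc4 probe A_66_P122074 and the Arrdc3 probes kept direction and call under all 16 refits and with any 1 mouse left out. Of 13 probes, 3 were called lower there, but 5 with array weights and 5 on scan day 2 alone, as Arrdc2 was then called. The count of 3 lower for the difference of the effects was 5 with array weights, 1 on scan day 2 alone, and 3 to 5 with 1 mouse left out, the higher count reached without WT replicate 2 of the total line or WT replicate 6 of the ChREBPβ line. The 2 higher became 0 on either scan day alone. Fewer mice enter a single day.

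Between WT littermates, 1 higher and 4 lower became 0 and 0 with slide as a fixed block (Arrdc3 -1.72 and -1.24, Arrdc2 -0.41 and -0.43, Arrdc4 0.46), 0 and 2 on scan day 2 alone, and 0 and 2 with adjusted Mann-Whitney tests. The lower count was 2 on scan day 1 alone. The higher count was 0 with a fold of at least 1.5, 2 with unadjusted Mann-Whitney tests, and 0 to 3 with 1 mouse left out. With the replicate block it was 3. Replicate numbers were not taken as pairs, as correlations of deviations were above 0.1 in 2 of 7 pairs of the total line (-0.215 to 0.241) and in 6 of 8, not all, of the ChREBPβ line (-0.156 to 0.533). In ChREBPβ-deficient mice unadjusted Mann-Whitney tests called 2 probes higher, and every other alternative called 0. They were the 2 Arrdc2 probes, which are nearly the same measurement.

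Signs turned only for small differences without a call. Txn1 was -0.025 and -0.014 when each array was set to its 75th percentile, from processed and from median signals, -0.034 without the 3 arrays with high marker sums, and -0.065 on scan day 2 alone. Txn2 probe A_52_P590205 was 0.0032 without those arrays. Arrdc2 was 0.066 and 0.088 on scan day 1 alone. Txnip in ChREBPβ-deficient mice was -0.036 with slide as a fixed block and -0.079 to 0.16 with 1 mouse left out. The causes were not tested. Fits of each line alone and Mann-Whitney tests give no difference of the effects.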

Other observations

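Of the member probes outside the deposited table, Arrdc1 probe A_55_P1958280 was well above background on all 31 arrays but not flagged as found on 15 of them, with unnormalized signals of 204 to 406.5 in total ChREBP-KO mice, 192 to 293 in their WT littermates, 218 to 350 in ChREBPβ-deficient mice and 233 to 349.5 in their WT littermates. Txn2 probe A_55_P2023577 was dim, well above background on 4 arrays, with signals of 16 to 50 over all mice.

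The probes of Mlxipl did not move alike. A_55_P2119957 changed by -1.16 in total ChREBP-KO mice and A_55_P2728555 by -0.59 (limma, adjusted p = 8.05e-13 and 3.13e-03). A_55_P2045158 differed by -0.05 (limma, adjusted p = 0.603), at 10.79 to 11.10 in total ChREBP-KO mice and 10.90 to 11.08 in WT littermates.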
